A study of Mus musculus with 5 samples.

Results

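Rag1, Rag2 and Dntt build the antigen receptors of lymphocytes, and their chromatin was compared between γδ T thymocytes and DP thymocytes as the set of ATAC-seq peaks around each gene. ATAC-seq uses a transposase to cut and tag open DNA. The members were chosen by position. Every peak of the 5 deposited lists that overlapped chromosome 2 at 101360000 to 101570000 (mm9, 210 kb, with Rag2 at about 101.46 Mb and Rag1 at about 101.48 Mb) or chromosome 19 at 41060000 to 41180000 (120 kb, around Dntt) was taken. After peaks of all lists that overlapped by at least 1 bp were merged into regions, the Rag window held 108 regions and the Dntt window 52, so 160 of the 157434 regions of the series lay in the 2 windows.

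The libraries were transgenic SOX13hi and transgenic SOX13lo γδ thymocytes from animals that were TCRbeta KO, carried the transgene (Sox13tg+) and had the Sox13 ECFP KI/+ reporter, SOX13hi and SOX13lo γδ thymocytes from TCRbeta KO animals with the same reporter and no transgene, and DP thymocytes from wild type animals. All are labelled as C57BL/6. SOX13hi and SOX13lo name CD24+ γδ cells sorted for high or for low to absent CFP, which reports 1 Sox13 allele. The γδ animals thus also carried the TCRbeta deletion and the reporter allele, which the DP animals did not, so cell type and genotype cannot be told apart. The sources used here do not give the promoter of the transgene, the ages or the number of pooled animals. Each group holds 1 library of 40000 sorted cells, with no replicate. All differences below are therefore between libraries, and no p-value is given. The lists held 63932 (transgenic SOX13hi), 33155 (transgenic SOX13lo), 54435 (SOX13hi), 67482 (SOX13lo) and 113877 (DP) peaks, and the read depth behind them is unknown. Labels limit the reading of some lists. The name field inside the SOX13lo list reads SOX13hi, and the transgenic SOX13hi and DP libraries are labelled with the same index sequence. Peak lists show no transcripts, so the sorted cell types could not be checked against their markers.

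RAG1 and RAG2 form the recombinase that cuts DNA at recombination signal sequences to join V, D and J segments. RAG1 carries the catalytic centre and RAG2 is its obligate partner. Dntt encodes terminal deoxynucleotidyl transferase (TdT), a polymerase that adds nucleotides without a template at those junctions. In mouse thymus the Rag genes are active in double-negative cells, which rearrange Tcrb, Tcrg and Tcrd, and again in DP cells, which rearrange Tcra, and they are shut off once a receptor has signalled. Rag2 and Rag1 lie side by side and point towards each other, and their transcription in mouse T cells depends on distal elements on the Rag2 side, among them the anti-silencer element. The genes next to the pair in the RefSeq order of GRCm38 are Iftap on the Rag2 side and Traf6 on the Rag1 side. Opalin and Blnk are the nearest named coding genes around Dntt.

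The sequences before the 3 transcription starts are shown because the members share a cell stage of use, and because they let a reader see which short motifs of thymocyte factors they hold. They come from RefSeq on GRCm38.p6, in which all 3 members were matched by symbol. They give the 250 bases before the start, 5′ to 3′ on the gene's strand. Their coordinates are on GRCm38.p6 and cannot be set beside the mm9 peak positions. Capitals mark matches on either strand to 7 short motifs. The E-box, which E proteins bind, was searched as CANNTG. The motif of GATA factors was written as AGATAA, that of ETS factors as AGGAAG, that of RUNX factors as TGTGGT and that of Ikaros as TGGGAA. The letters searched for TCF/LEF factors were CTTTGA, and those for SOX factors were AACAAT.
Rag1, chr2:101649533-101649782, minus strand: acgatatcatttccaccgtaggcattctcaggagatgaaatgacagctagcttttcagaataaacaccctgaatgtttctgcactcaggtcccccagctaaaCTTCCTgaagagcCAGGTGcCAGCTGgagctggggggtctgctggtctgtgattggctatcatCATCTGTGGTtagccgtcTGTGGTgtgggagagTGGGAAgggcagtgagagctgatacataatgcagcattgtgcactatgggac
Rag2, chr2:101624462-101624711, plus strand: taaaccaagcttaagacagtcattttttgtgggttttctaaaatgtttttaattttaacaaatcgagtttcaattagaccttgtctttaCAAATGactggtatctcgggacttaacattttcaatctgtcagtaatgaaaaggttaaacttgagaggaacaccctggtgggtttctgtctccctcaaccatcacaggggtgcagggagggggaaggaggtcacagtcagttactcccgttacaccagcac
Dntt, chr19:41029025-41029274, plus strand: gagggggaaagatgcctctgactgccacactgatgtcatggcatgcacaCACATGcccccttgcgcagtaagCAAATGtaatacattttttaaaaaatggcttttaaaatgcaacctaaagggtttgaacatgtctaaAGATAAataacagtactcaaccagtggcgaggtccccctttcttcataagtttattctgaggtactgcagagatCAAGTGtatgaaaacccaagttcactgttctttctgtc
The Rag1 sequence held 3 E-boxes, 2 RUNX matches, 1 ETS match and 1 Ikaros match, and its E-box 85 bases before the start overlaps the RUNX match 81 bases before it. The Rag2 sequence held 1 E-box. The Dntt sequence held 3 E-boxes and 1 GATA match. No SOX or TCF/LEF match was found in these 3 windows. Among 32851 RefSeq promoter windows of this length, 66.2% held an E-box, 14.0% a RUNX, 29.5% an ETS, 21.6% an Ikaros, 9.99% a GATA, 13.8% a TCF/LEF and 9.42% a SOX match. E-boxes are thus common in any promoter.

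The Rag window was less densely covered by peaks in every γδ library than in DP. It held 20 peaks in transgenic SOX13hi, 11 in transgenic SOX13lo, 20 in SOX13hi and 25 in SOX13lo, against 87 in DP. Per 10000 peaks of each list these were 3.13, 3.32, 3.67 and 3.70 for γδ cells and 7.64 for DP. The γδ libraries lay close together and below DP.

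The ratio to DP was 0.409 for transgenic SOX13hi, with an exact 95% interval of 0.238 to 0.672. It was 0.434 for transgenic SOX13lo (0.209 to 0.816), 0.481 for SOX13hi (0.280 to 0.789) and 0.485 for SOX13lo (0.298 to 0.764). These intervals cover counting error only and treat peaks as independent. All 4 were reduced at least 2-fold. Among all genome windows of 210 kb with at least 10 peaks in both lists together, the share reduced this far was 11.2% for transgenic SOX13hi, 19.4% for transgenic SOX13lo, 15.3% for SOX13hi and 11.2% for SOX13lo. With every list limited to its 33155 highest-scoring peaks, the window held 8, 11, 12 and 13 peaks in the γδ libraries in the same order, and 29 in DP. The ratios were then 0.276, 0.379, 0.414 and 0.448, all again reduced at least 2-fold, as were 11.5%, 12.8%, 14.2% and 10.4% of the genome windows so counted. Joining peaks within 1000 bp of each other left 9, 7, 9 and 12 sites in the γδ libraries, against 23 in DP, and the ratios of 0.574, 0.790, 0.673 and 0.769 then had intervals that include 1.

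The size of the difference was also set beside windows over the whole genome. With lists of equal length the mean of the γδ libraries was 3.32 peaks per 10000 and DP had 8.75, a difference of -5.43. Of 7065 genome windows of this width, 2 had a difference at least as low, and with the lists as deposited 13 of 8028 did. Such a difference needs many DP peaks, and as many DP peaks as in the Rag window were found in 8 windows with lists of equal length and in 22 as deposited. Without the SOX13lo library the numbers with a difference at least as low were 2 and 14. The window ranks serve as a description and not as a test. Genome windows were laid end to end from each chromosome start and counted by peak centre. Windows without a peak in any of the lists used were not among them, so shares are over windows that held a peak. The Rag and Dntt windows were placed on their loci and counted by overlap. Genome windows that overlap these loci were not left out. In the 210 kb next to the window on the Rag2 side there was 1 peak in each γδ library and there were 5 in DP. On the Rag1 side there were 10, 3, 14 and 19 peaks in transgenic SOX13hi, transgenic SOX13lo, SOX13hi and SOX13lo, against 16 in DP. These flank counts were not scaled to list length, and every γδ list is shorter than that of DP. SOX13lo had more peaks than DP on the Rag1 side even so.

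**Figure D1:**
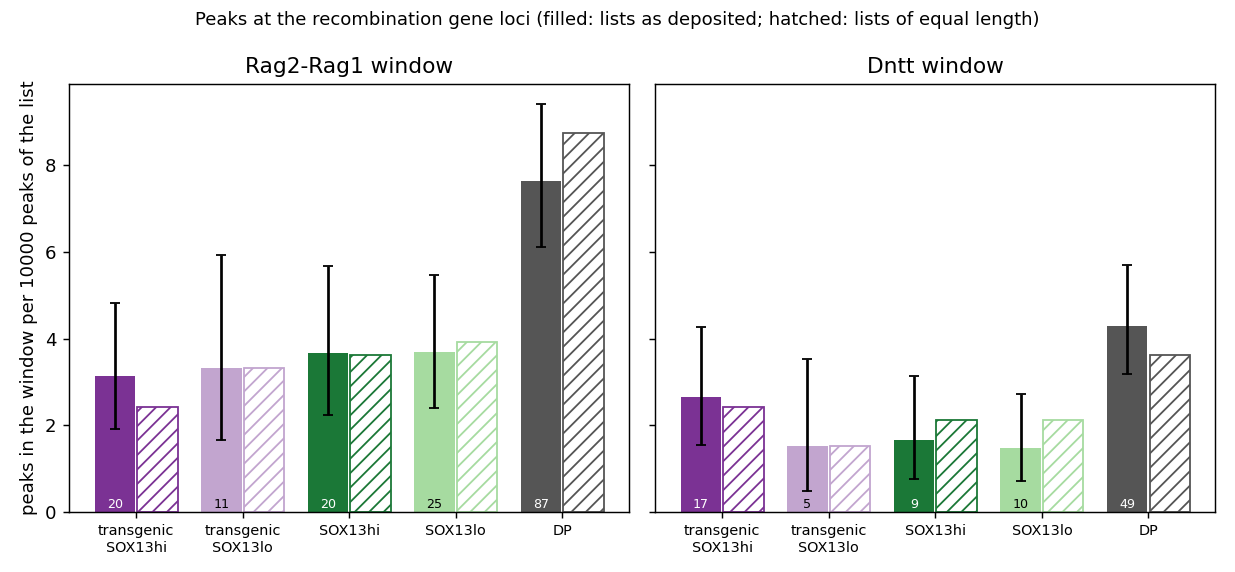
Peaks in the Rag window (left) and the Dntt window (right) per 10000 peaks of each library's list. Filled bars are the lists as deposited, with exact Poisson 95% intervals for counting error and the number of peaks at the foot, and hatched bars are lists of equal length. DP is the highest bar at both loci, with 87 and 49 peaks.

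The γδ deficit was largest around the positions given for the genes, and was also present on the Rag2 side. The window was divided, after its values were seen, at the position given for Rag2 and at 101.5 Mb. The border at 101.5 Mb is no given position. It was set as far from the position given for Rag1 as that is from Rag2. Between 101.46 and 101.5 Mb lay the 40 kb that hold the positions given for both genes. There transgenic SOX13hi had 6 peaks, transgenic SOX13lo 2, SOX13hi 5 and SOX13lo 7, against 48 in DP. With lists of equal length the γδ libraries had 3, 2, 3 and 3 peaks there and DP had 16. This stretch gave 55.2% of the DP peaks of the window (44.1 to 65.9) and a smaller share of those of each γδ library, with 6 of 20 in transgenic SOX13hi (interval 11.9% to 54.3%), 2 of 11 in transgenic SOX13lo (2.28% to 51.8%), 5 of 20 in SOX13hi (8.66% to 49.1%) and 7 of 25 in SOX13lo (12.1% to 49.4%). From 101.36 to 101.46 Mb, on the Rag2 side, the γδ libraries had 8, 5, 7 and 9 peaks and DP had 30. Per 10000 peaks these were 1.25, 1.51, 1.29 and 1.33 for γδ cells and 2.63 for DP. With lists of equal length they were 3, 5, 5 and 4 peaks for γδ cells and 9 for DP. From 101.5 to 101.57 Mb, on the Rag1 side, transgenic SOX13hi had 6, transgenic SOX13lo 4, SOX13hi 8 and SOX13lo 9 peaks, against 9 in DP. Per 10000 peaks of each list these were 0.938, 1.21, 1.47 and 1.33 for γδ cells and 0.790 for DP. With lists of equal length they were 2, 4, 4 and 6 peaks for γδ cells and 4 for DP, so the Rag1-side end showed no deficit common to the γδ libraries.

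**Figure D2:**
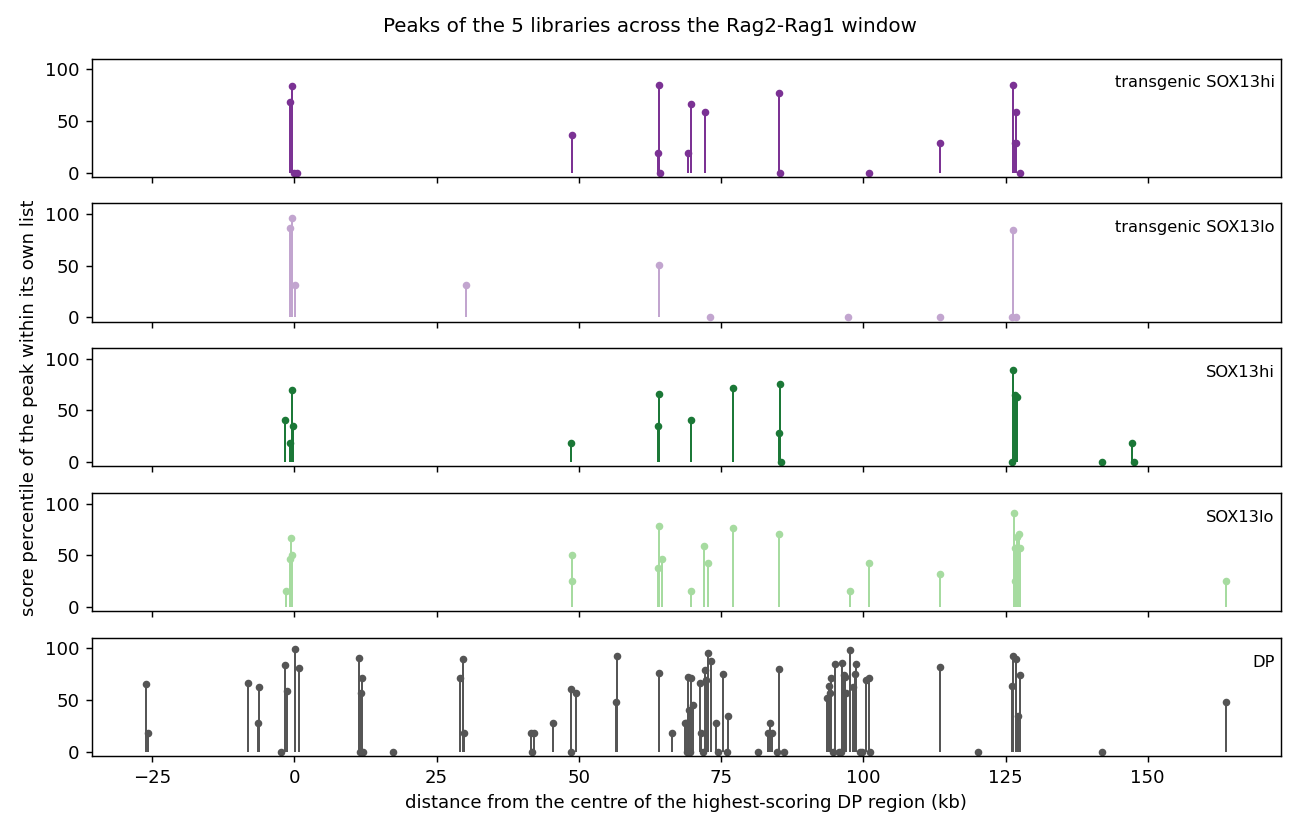
Every peak of the Rag window in the 5 libraries, by distance in kb from the centre of the highest-scoring DP region. The height is the percent of the library's own peaks with a lower score. DP peaks are dense around 73 and 97.6 kb, where the γδ libraries have few, while the clusters at 0 and 126 kb are present in all 5.

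The single sites of the Rag locus differed in which lists held them. Some were open in all 5 libraries, and others were strong in DP and weak or without a peak in γδ cells. Still others were held by γδ lists and lacked a DP peak. Scores are given as percentiles, the percent of a library's own peaks with a lower score, because what the score counts is not stated and scores cannot be compared between lists. A given percentile leaves more peaks above it in a longer list, and the DP list is the longest. Percentiles are thus not equal ranks between libraries, and a lower one in a γδ library need not be a lower rank.

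The highest-scoring DP region, at 101391526 to 101392764, lay on the Rag2 side, 72.7 kb from the DP region at 101464784 near the given position of that gene. Its DP peak was 987 bp wide, the widest of the window, at percentile 99.8. The region was present in all 4 γδ libraries, at percentile 83.7 in transgenic SOX13hi, 95.9 in transgenic SOX13lo, 69.9 in SOX13hi and 67.0 in SOX13lo. In each γδ library its percentile was lower than in DP, and the SOX13lo peaks lay 15 bp outside the DP peak itself. A region 318 bp from the DP peak, at 101391216 to 101391459, was held by each of the 4 γδ lists but lacked a DP peak.

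The next 2 DP regions by score lay in the 40 kb between 101.46 and 101.5 Mb. That at 101489701 to 101489821 had a DP peak at percentile 98.1. Of the γδ libraries only SOX13lo met it, with a peak at percentile 16.1. The nearest peak of transgenic SOX13lo was 211 bp away, that of transgenic SOX13hi 3371 bp and that of SOX13hi 12068 bp. The region at 101464784 to 101464871, near the given position of Rag2, stood at percentile 95.9 in DP, with a narrow DP peak of 34 bp. Again SOX13lo was the only γδ library to meet it, at percentile 42.2. The nearest peaks were 579 bp away in transgenic SOX13hi, 261 bp in transgenic SOX13lo and 2895 bp in SOX13hi. Both sites therefore stood high in DP, low in SOX13lo, and without an overlapping peak in the other 3 γδ lists.

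The fourth region by score, at 101448814 to 101448873, was at percentile 92.8 in DP. The nearest γδ peak, in transgenic SOX13hi, was 7112 bp away. Further Rag2-side regions strong in DP alone lay at 101403470 to 101403497 (percentile 91.0) and at 101421663 to 101421827 (percentile 90.1), and were chosen after their values were seen. The first was a single narrow DP peak of 28 bp, and the other was 165 bp wide. The nearest γδ peak was 10829 bp from the first and 528 bp from the other, in transgenic SOX13hi and transgenic SOX13lo.

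The fifth region by score, at 101518403 to 101518698 on the Rag1 side, was open in every library and at a similar percentile. Its percentile was 84.6 in transgenic SOX13hi, 84.5 in transgenic SOX13lo, 88.6 in SOX13hi and 90.8 in SOX13lo, against 92.4 in DP. It held the highest-scoring peak of the window in SOX13hi and in SOX13lo. The neighbouring region at 101518901 to 101519250 was also present in all 5 lists. It stood at percentile 58.0 in transgenic SOX13hi, 0 in transgenic SOX13lo, 62.8 in SOX13hi, 68.1 in SOX13lo and 89.9 in DP, where 0 means the lowest score of a list.

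The last of the 4 regions common to all libraries, at 101456162 to 101456368, had a higher percentile in transgenic SOX13hi and SOX13lo than in DP. Transgenic SOX13hi had it at percentile 84.6, transgenic SOX13lo at 50.9, SOX13hi at 66.0 and SOX13lo at 77.9, against 76.3 in DP. In transgenic SOX13hi its score tied with that of the region at 101518403 as the highest of the window. A region 78 bp from it, at 101455986 to 101456083, was present in 3 γδ libraries and not in DP. Of the 9 Rag regions held by at least 3 γδ libraries, 2 were absent from DP, and over the genome 13.5% of such regions were. Of the 38 Rag regions held by any γδ library, 21 (55.3%) were absent from DP, where the genome-wide share was 50.2%.

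In merged regions, 87 of the Rag window were present in DP. Of these, 77 were absent from transgenic SOX13hi (88.5%, exact Clopper-Pearson 95% interval 79.9 to 94.3), 81 from transgenic SOX13lo (93.1%, 85.6 to 97.4), 78 from SOX13hi (89.7%, 81.3 to 95.2) and 73 from SOX13lo (83.9%, 74.5 to 90.9). Over all DP regions of the genome the shares were 69.4%, 82.8%, 73.2% and 67.1%, in the same order. The share was above the background in each library. In all, 70 of the 87 were in no γδ list, where the genome-wide share was 57.6%.

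Many DP regions are weak and rarely shared anywhere, so the regions in the upper 25% of all DP regions by score were taken separately. There were 20 in the Rag window. Of these, 13 were absent from transgenic SOX13hi (interval on the share 40.8% to 84.6%, genome 23.1%) and 15 from transgenic SOX13lo (50.9% to 91.3%, genome 46.1%). SOX13hi lacked 14 (45.7% to 88.1%, genome 27.5%) and SOX13lo lacked 10 (27.2% to 72.8%, genome 21.5%). The excess of absent regions thus remained among strong sites. Of the 20, 10 were in no γδ library (interval 27.2% to 72.8%), where the genome-wide share was 12.3%, and without SOX13lo 12 were in none of the other 3. Of the 10 strong regions in the 40 kb between 101.46 and 101.5 Mb, 6 were in no γδ library. On the Rag2 side 4 of 7 were in none, and on the Rag1 side 0 of 3.

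**Figure D3:**
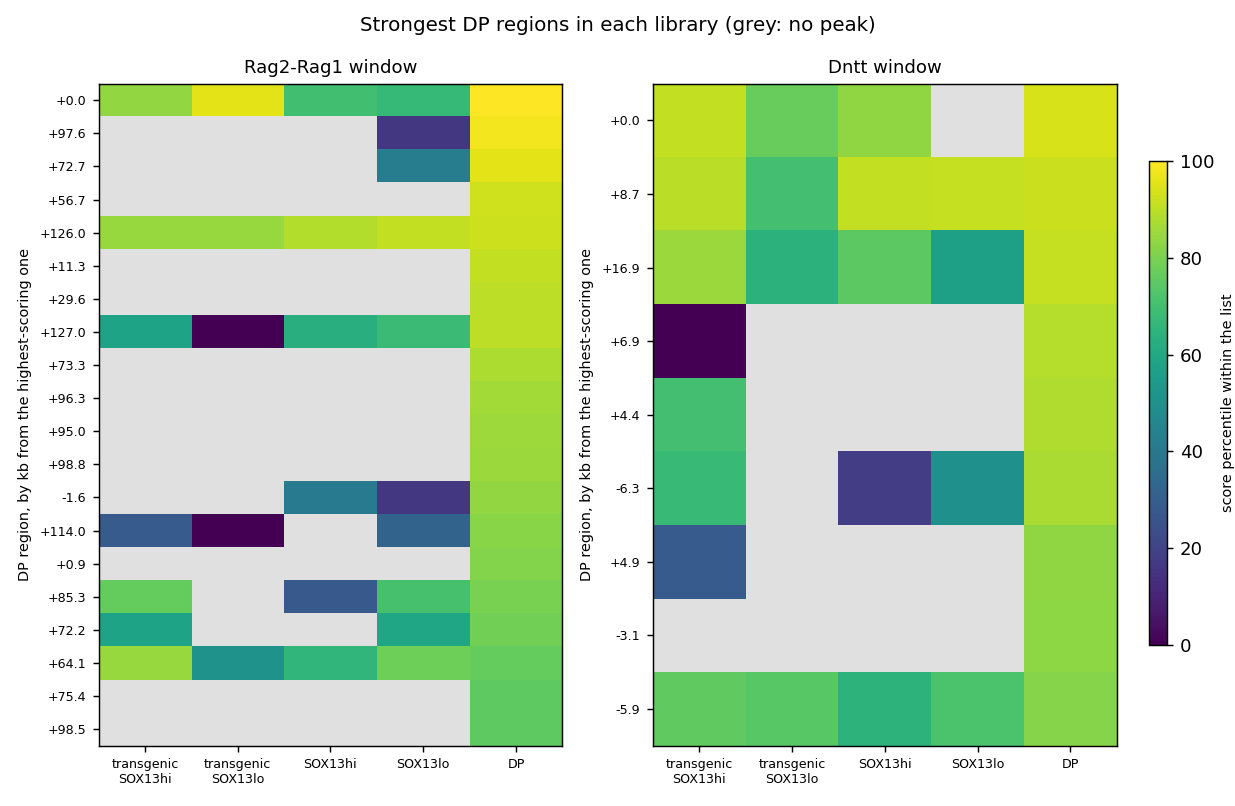
DP regions in the upper 25% by DP score in the Rag window (left, 20 regions) and the Dntt window (right, 9 regions), in order of falling DP score. Rows are labelled by distance in kb from the highest-scoring region, colour is the score percentile within each list and grey is no peak. In the Rag window 10 rows are grey in all 4 γδ columns, and in the Dntt window 1.

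The Dntt window was also less densely covered in the γδ libraries as deposited, but the difference depended on how peaks were counted. Transgenic SOX13hi had 17 peaks, transgenic SOX13lo 5, SOX13hi 9 and SOX13lo 10, against 49 in DP. Per 10000 peaks these were 2.66, 1.51, 1.65 and 1.48 for γδ cells and 4.30 for DP. The transgenic SOX13hi library was nearest to DP, and both are labelled with the same index sequence. Whether this bears on the Dntt counts was not tested.

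The ratio to DP was 0.618 for transgenic SOX13hi (0.334 to 1.09), 0.350 for transgenic SOX13lo (0.109 to 0.875), 0.384 for SOX13hi (0.166 to 0.790) and 0.344 for SOX13lo (0.156 to 0.688). The interval of transgenic SOX13hi includes 1. The other 3 were reduced at least 2-fold. Over genome windows of 120 kb, the share reduced this far was 14.2% for transgenic SOX13hi, 21.9% for transgenic SOX13lo, 17.4% for SOX13hi and 13.6% for SOX13lo. With lists of equal length the window held 8, 5, 7 and 7 peaks in the γδ libraries and 12 in DP. Those ratios, 0.667, 0.417, 0.583 and 0.583, all had intervals that include 1. Only transgenic SOX13lo was then reduced at least 2-fold, as were 12.5%, 12.6%, 13.1% and 11.2% of such genome windows. Joining peaks within 1000 bp of each other left 9, 5, 5 and 7 sites in the γδ libraries and 13 in DP, with ratios of 1.02, 0.999, 0.662 and 0.794. Their intervals were 0.383 to 2.57, 0.279 to 2.98, 0.185 to 1.98 and 0.268 to 2.14, and each includes 1. Site counts thus do not separate γδ libraries level with DP from lower ones.

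With lists of equal length the mean γδ value was 2.04 peaks per 10000 and DP had 3.62, a difference of -1.58. A difference at least as low was found in 221 of 10320 genome windows of this width (2.14%), and with the lists as deposited in 48 of 12094. As many DP peaks as in the Dntt window were found in 322 and 108 of these windows. Without SOX13lo the numbers with a difference at least as low were 239 and 62. The flanking 120 kb held 2 to 7 peaks on one side in the γδ libraries, against 10 in DP, and at most 1 on the other in every library. These counts too were not scaled to list length, and the DP list is the longest.

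**Figure D4:**
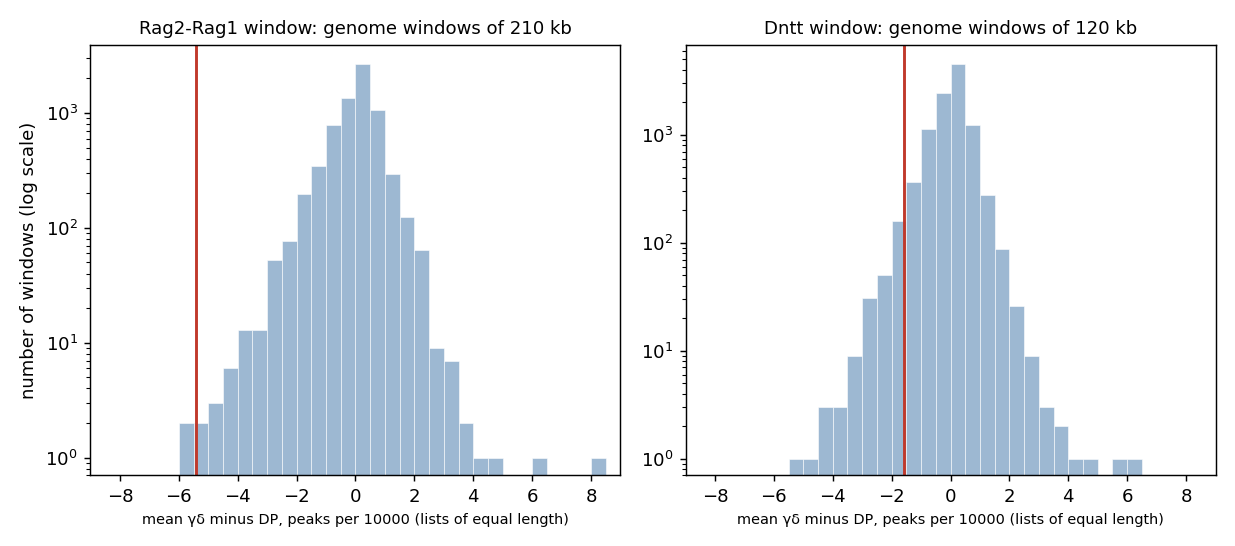
Difference between the mean γδ value and DP in peaks per 10000, with lists of equal length. Genome windows of 210 kb (left) and 120 kb (right) that held a peak are shown, with their number on a log scale. The red lines mark the Rag window at -5.43 and the Dntt window at -1.58, and 1 window lies beyond each plot. The Rag window lies at the far low end, and the Dntt window inside the lower tail.

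The 3 Dntt regions with the highest DP scores were present in at least 3 γδ libraries each, and those next in score mostly in fewer. The highest-scoring DP region, at 41096842 to 41096945, was at percentile 90.9 for transgenic SOX13hi, 76.6 for transgenic SOX13lo and 83.4 for SOX13hi, against 94.1 for DP. SOX13lo had no peak on it but had one 68 bp from the DP peak, at percentile 52.6. The site thus stood high in 4 libraries and had a neighbouring peak in the fifth.

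The region at 41105400 to 41105850 was present in all libraries. It was at percentile 89.5 in transgenic SOX13hi, 70.1 in transgenic SOX13lo, 90.9 in SOX13hi and 91.4 in SOX13lo, against 91.9 in DP. It was the highest-scoring Dntt site of SOX13hi and SOX13lo. The other regions common to all 5 lists were at 41113646 to 41113900 and at 41090866 to 41091131. The first stood at percentile 85.0 in transgenic SOX13hi, 64.2 in transgenic SOX13lo, 74.8 in SOX13hi and 56.9 in SOX13lo, against 91.2 in DP. Its transgenic SOX13hi peak lay 25 bp outside the DP peak itself. The other stood at percentile 75.6, 74.2, 64.5 and 71.7 in these γδ libraries and at 81.9 in DP. Transgenic SOX13lo, whose list is the shortest, had 4 of its 5 Dntt peaks at these regions or at the highest-scoring one.

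Between these shared sites lay DP regions that, of the γδ libraries, only transgenic SOX13hi met. It is the γδ library labelled with the same index sequence as DP. At the Rag window its ratio to DP, 0.409, was the lowest of the γδ libraries. Whether the index bears on these sites was not tested. The regions at 41103702 to 41103896 and at 41101225 to 41101304 were the fourth and the fifth by DP score, at percentile 88.7 and 88.2 in DP. Transgenic SOX13hi had peaks there at percentile 0 and 70.3. In the other γδ libraries the nearest peaks were 936 to 1745 bp from the DP peak at the first and 718 to 4323 bp at the other. A further region, at 41101618 to 41101955, was likewise met by transgenic SOX13hi alone of the γδ libraries, at percentile 28.8 against 83.4 in DP. It was chosen after its values were seen. The region at 41093661 to 41093986, at percentile 83.1 in DP, was the only strong Dntt region in no γδ list.

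**Figure D5:**
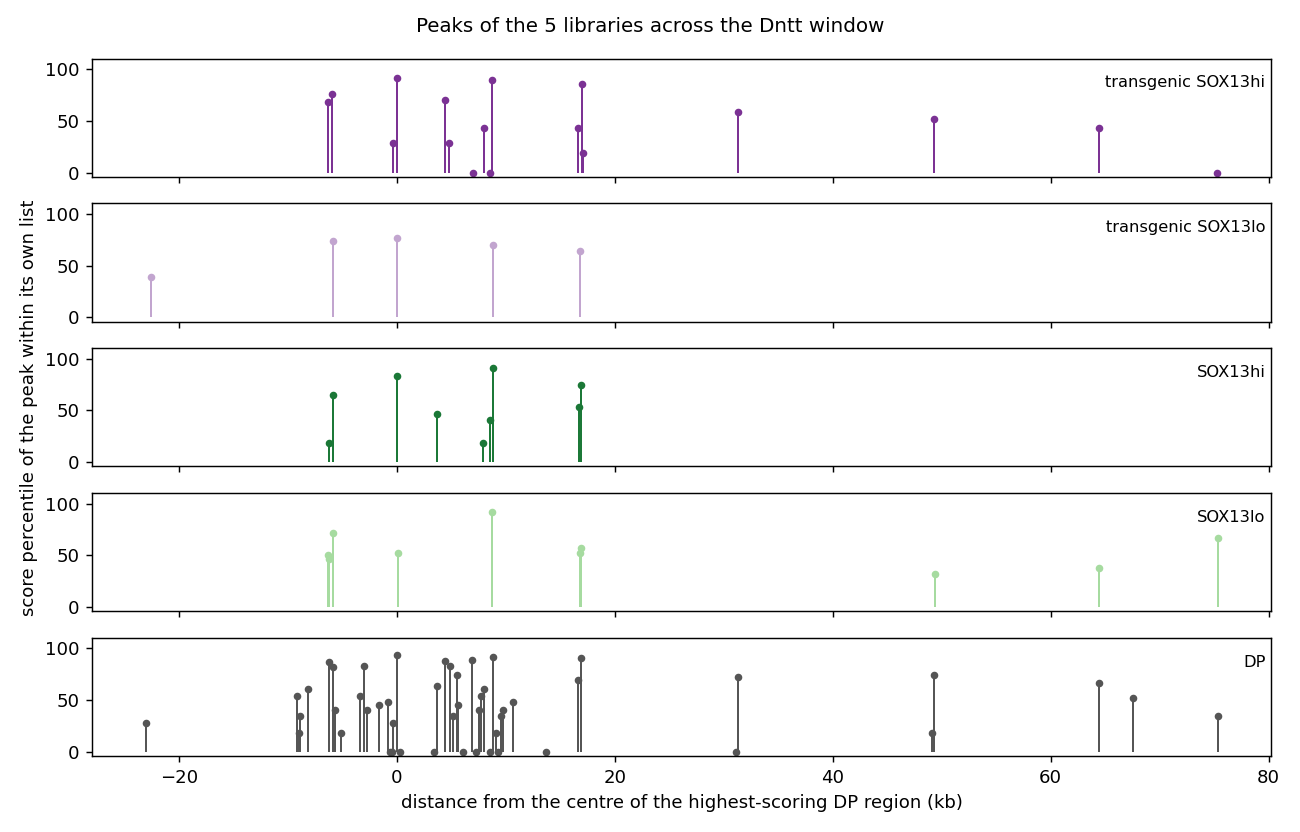
Every peak of the Dntt window in the 5 libraries, by distance in kb from the centre of the highest-scoring DP region, with the score percentile within each list as height. The sites at about -5.89, 0, 8.73 and 16.9 kb are marked by peaks in or beside every list. DP has many further peaks between them.

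Of the 48 Dntt regions present in DP, 33 were absent from transgenic SOX13hi (68.8%, 53.7 to 81.3), 44 from transgenic SOX13lo (91.7%, 80.0 to 97.7), 40 from SOX13hi (83.3%, 69.8 to 92.5) and 42 from SOX13lo (87.5%, 74.8 to 95.3). The genome-wide shares were 69.4%, 82.8%, 73.2% and 67.1%. The transgenic SOX13hi share was at the background, the intervals of transgenic SOX13lo and SOX13hi include it, and that of SOX13lo lies above it. Among the 9 Dntt regions in the upper 25% by DP score, transgenic SOX13hi lacked 1 (11.1%, 0.281 to 48.2, genome 23.1%) and transgenic SOX13lo lacked 5 (55.6%, 21.2 to 86.3, genome 46.1%). SOX13hi lacked 4 (44.4%, 13.7 to 78.8, genome 27.5%) and SOX13lo lacked 5 (55.6%, 21.2 to 86.3, genome 21.5%). Each of the 4 intervals includes its genome share, in SOX13lo only just. Of the 9, 1 was absent from all 4 (11.1%, genome 12.3%). None of the 5 Dntt regions held by at least 3 γδ libraries was absent from DP, where the genome-wide share was 13.5%. Of the 20 held by any γδ library 4 were absent from DP, where the genome-wide share was 50.2%. Over both windows together and with lists of equal length, DP had 41 regions. Transgenic SOX13hi lacked 26 of them (63.4%, genome 42.6%), transgenic SOX13lo 32 (78.0%, genome 51.6%), SOX13hi 31 (75.6%, genome 44.4%) and SOX13lo 30 (73.2%, genome 40.5%).

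The 4 pairs of γδ libraries compared differ by label in the transgene or in the CFP fraction, and each is 1 library against 1. The interval of every ratio of peaks included 1 at both loci. At the Rag window transgenic SOX13hi stood at 0.851 times SOX13hi (0.435 to 1.67), and transgenic SOX13lo at 0.896 times SOX13lo (0.398 to 1.89). The ratio of SOX13hi to SOX13lo was 0.943 (0.431 to 2.18) with the transgene and 0.992 (0.522 to 1.86) without it. At Dntt, transgenic SOX13hi was at 1.61 times SOX13hi (0.678 to 4.09), and transgenic SOX13lo at 1.02 times SOX13lo (0.273 to 3.27). Transgenic SOX13hi was at 1.76 times transgenic SOX13lo (0.624 to 6.11), and SOX13hi at 1.12 times SOX13lo (0.401 to 3.06). Intervals this wide allow differences of up to several fold, so they do not show that the fractions were alike.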

How the data were processed

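ATAC-seq peak lists of 5 libraries, 1 per group, were used as deposited. Each list gives a chromosome, start, end and a whole-number score per peak, and per the submitters' processing notes the build is mm9. The sources used here do not give what the authors' deposited score counts, nor the aligner, the peak caller or the depth, so scores were used only to rank peaks within a list. Peaks were merged into regions over all lists at an overlap of at least 1 bp. Lists that held a region counted as sharing it, so peaks could share a region without overlapping each other. Peaks were counted per list, per 10000 peaks and with lists cut to the 33155 highest scores. Ratios have exact conditional binomial 95% intervals and shares exact Clopper-Pearson ones, for counting error only. The window calls were also run on simulated peaks, drawn independently for SOX13hi and DP only. Real peaks cluster, so no error rate is taken from that run. Named regions are the 5 with the highest DP score per locus, those in all 5 libraries and those in at least 3 γδ libraries but not DP. The members and rules were chosen with earlier results of these data known. No mm9 annotation was used, so peaks were not assigned to start sites or exons, and the other recombination genes were not analysed here. Python 3.11.15 was used with scipy 1.17.1, pandas 2.3.3, matplotlib 3.10.9 and numpy 2.4.6. Alternatives were the list length, the upper 50% of scores, peaks wider than 30 bp, joining within 150 or 1000 bp, the window's extent and the overlap rule.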

Additional observations from a re-analysis of the deposited data

How the results depend on the processing

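No paired analysis was possible because each group holds 1 library. With lists as deposited against 56 alternative values of the ratios to DP, 51 stayed within the counting interval and 1 turned direction. Joining peaks within 1000 bp gave 1.02 for transgenic SOX13hi at Dntt (0.618 as deposited), 0.999 for transgenic SOX13lo (0.350) and 0.794 for SOX13lo (0.344) there, and 0.769 for SOX13lo at Rag (0.485). The cause was not tested. Cutting the Rag window to its central part gave 0.261 for SOX13hi (0.481). Beside the joined sites, the 2-fold reduction at Rag was lost in SOX13hi (0.642) and SOX13lo (0.685) with the window extended at each side, and in SOX13lo (0.589, interval 0.312 to 1.06) with only peaks wider than 30 bp, where the interval of transgenic SOX13lo also reached 1.06. No alternative turned a Rag ratio above 1. The share of DP regions of both windows absent from a γδ library moved with the setting in 16 of 32 values. In transgenic SOX13hi, transgenic SOX13lo, SOX13hi and SOX13lo, in this order, it was 63.4%, 78.0%, 75.6% and 73.2% with lists of equal length, and 52.8%, 72.2%, 72.2% and 55.6% with peaks joined within 1000 bp. It was 97.8%, 99.3%, 97.1% and 95.6% when overlap had to be reciprocal at 50%. For the upper 25% of DP regions, a setting chosen after seeing the data, it was 48.3%, 69.0%, 62.1% and 51.7%. The genome-wide shares were 23.1%, 46.1%, 27.5% and 21.5% for that upper 25%. With lists of equal length they were 42.6%, 51.6%, 44.4% and 40.5%. No genome-wide share was computed for the joined or reciprocal settings, so those values cannot be set against the genome. With 5 to 25 peaks per γδ library in a window, intervals on ratios between γδ libraries reached from 0.273 to 6.11, so differences of several fold could go undetected.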
